A study of Mus musculus with 4 samples.

Results

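The integrins and adhesion molecules described here are 8 leukocyte genes chosen by name, *Itgae*, *Itgb7*, *Itga4*, *Itgal*, *Itgb2*, *Itga1*, *Itgb1* and *Cd44*. All 8 were among the 19339 genes listed in every library, and all 8 were among the 12009 genes that reached 1 FPKM or more in at least 2 libraries (FPKM are fragment counts normalised to transcript length and sequencing depth). The names, and no measured value, were the rule for choosing them, although results of these data were already known when they were chosen. The cells were TCRβ+CD8αα+ intraepithelial lymphocytes (IELs) of the small intestine, T cells that live between the epithelial cells of the gut, from C57BL/6 mice. Control libraries came from Kdm6bfl/fl mice, which carry the floxed alleles and for which no Cre is named. The others came from Kdm6bfl/fl-CD4Cre mice, in which the *Cd4* promoter drives Cre from late double-negative thymocytes onwards, and these, labelled Kdm6b-deficient, are called the labelled-deficient libraries below. Each group had 2 libraries, numbered 1 and 3, each of RNA pooled from 3 mice, and the ages of the mice were not given in the sources used here.

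Integrins are receptors made of an α and a β chain that hold cells to other cells and to matrix. αEβ7 (*Itgae* with *Itgb7*) binds E-cadherin on epithelial cells and is the integrin IELs are best known for, and α4β7 (*Itga4* with *Itgb7*) binds MAdCAM-1 on gut vessels and serves entry into the intestine. αLβ2 (*Itgal* with *Itgb2*), also called LFA-1, binds ICAMs, α1β1 (*Itga1* with *Itgb1*) binds collagens, α4β1 binds VCAM-1 and fibronectin, and CD44 is a receptor for hyaluronan. The question addressed by the comparison was whether these transcripts differ between the genotypes, since the study asked whether Kdm6b, which removes methyl groups from lysine 27 of histone H3, controls gut homing. In these IELs the paper found CD103 (αE, by flow cytometry and RT-qPCR) and α4β7 (by flow cytometry) unchanged, while fewer thymic precursors carried CD103.

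The labels were checked first. *Kdm6b* had 16.5 and 16.0 FPKM in control replicates 1 and 3, and 18.2 and 11.1 FPKM in labelled-deficient replicates 1 and 3. The groups overlapped, with labelled-deficient replicate 1 the highest of the 4, so libraries carry their label and no more is claimed of the genotype. The floxed exons are not named in the sources used here, so a gene-level value may include exons that Cre leaves in place. Against the sort, *Cd8a* was at 280 to 463 FPKM and *Cd8b1* at 0 to 1.64 FPKM, while *Cd4*, which the sort excluded, was at 30.6 and 10.1 FPKM in control replicates 1 and 3 and at 30.5 and 3.17 FPKM in the labelled-deficient libraries. The summed FPKM of 20 markers of intestinal epithelium, all of them above 0, was 1703 and 6961 in control replicates 1 and 3, and 5106 and 14788 in the labelled-deficient libraries. The summed FPKM of *Cd3d*, *Cd3e*, *Cd3g*, *Cd247* and *Ptprc*, used below as the measure of T cell and leukocyte RNA, was 3547 and 2837 in the controls and 2886 and 2058 in the labelled-deficient libraries. Most of it was *Cd3g*, with 2167 and 1702 FPKM in the controls and 1762 and 1259 FPKM in the labelled-deficient libraries. The sum of 10 myeloid and dendritic markers was 2493 and 1779 in the controls and 3999 and 3137 in the labelled-deficient libraries. Its largest parts were *Cd74*, with 1308 and 939 against 2183 and 1637 FPKM, and *H2-Ab1*, with 698 and 495 against 1229 and 741 FPKM. *Csf1r*, with 31.3 and 14.6 against 26.7 and 32.5 FPKM, and *Cd14*, with 28.3 and 11.8 against 30.9 and 21.6 FPKM, overlapped between the groups. Of the 10 markers 8 passed the level filter, and *Clec9a*, which marks cross-presenting dendritic cells, was at 0.07 to 0.61 FPKM. B lineage markers summed to 31.6 to 84.8 FPKM, fibroblast markers to at most 6.16 and endothelial markers to at most 0.23. In bulk RNA, fewer cells of a type and less RNA per cell cannot be told apart.

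The 8 genes fell into 4 tiers of level, which can be compared because FPKM are per length. *Itgae*, the αE chain (CD103), stood at the top with a mean of 289 FPKM over the 4 libraries, above the level of 97.2% of the genes tested, and its lowest library lay above the highest library of every other member. *Itgb7* and *Itgb2*, the β chains of αEβ7 and LFA-1, followed at 137 and 120 FPKM. *Itgb7* was above *Itgb2* within each of the 4 libraries, although their ranges (84.4 to 179 and 82.0 to 154 FPKM) overlapped. *Itga1* came next at 36.9 FPKM, with a range that did not reach its neighbours on either side. *Itgb1*, *Cd44*, *Itgal* and *Itga4* made up the lowest tier at 18.9, 17.1, 15.5 and 9.85 FPKM. Within that tier neighbouring ranges overlapped, and the order of *Itgb1* and *Cd44* turned between libraries, *Itgb1* being higher in 1 of the 4, as did that of *Cd44* and *Itgal*, *Cd44* being higher in 1 of the 4. *Itgal* was above *Itga4* in each of the 4.

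**Figure D1:**
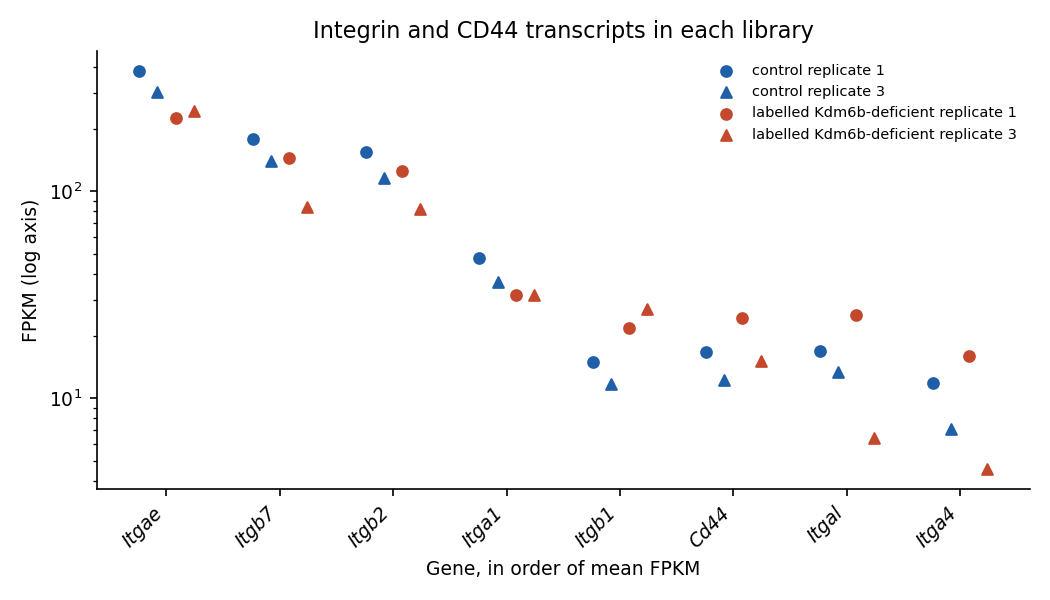
FPKM on a log axis of each of the 8 genes in each of the 4 libraries, with circles for replicate 1, triangles for replicate 3, blue for control and red for the labelled-deficient libraries. *Itgae* is the highest gene in every library (227 to 383 FPKM), and *Itgb1* is the only gene with both red points above both blue points.

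Read as partners, the chains were far from even. Of the summed FPKM of 18 integrin α chains, *Itgae* took 73.8% and 73.7% in control replicates 1 and 3, and 63.1% and 69.5% in the labelled-deficient libraries. Of the summed FPKM of 9 β chains, *Itgb7* took 40.9% to 50.3% and *Itgb2* 39.7% to 43.2%. *Itgae* was at 2.14 and 2.16 times the FPKM of *Itgb7* in the control libraries, and *Itga4*, the other α partner of β7, at 0.066 and 0.051 times. Among both α partners of β7, *Itgae* made up 97.0% and 97.7% of the FPKM in the controls, and 93.4% and 98.2% in the labelled-deficient libraries. *Itgal* was at 0.110 and 0.1153 times the FPKM of its partner *Itgb2* in the controls. *Itga1*, in contrast, was at 3.20 and 3.11 times the FPKM of its only partner *Itgb1* in the controls.

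None of the 8 genes (0 of 8) passed an adjusted p of 0.05 between the groups in limma, where 0% of the genes tested did. At an unadjusted p under 0.05 there were 2 of the 8, *Itgae* and *Itgb1*, against 5.35% of the genes tested. That count depended on the library left out, a setting that leaves 1 library in a group. Over the libraries left out in turn, the log2 fold change of *Itgae* ran from −0.70 to −0.35 and that of *Itgb1* from 0.67 to 0.999. Negative log2 fold changes were seen in 6 of the 8 genes, where 49.9% of the genes tested had one, and the median over the 8 was −0.29 beside 0.00097 over all genes tested. Scaling to *Cd3* genes and *Ptprc* moved the median of all genes tested to 0.34 and that of the 8 to 0.066, with *Itga4* and *Itgal* above 0, and relative to all genes the 8 were at −0.28, close to their value without it. The median of the 8 was 0.34 with an epithelial score as covariate, 0.30 without labelled-deficient replicate 3 and −0.585 without labelled-deficient replicate 1, beside 0.0087, 0.024 and −0.011 over all genes tested, so its sign turned with these settings. No member lay past a log2 fold change of 1 (0 of 8), as 6.64% of the genes tested did, 6.2% above 1 and 0.441% below −1. With the replicate number added to the model as a block, 1 of the 8 was called, *Itgb1*, where 8.49% of the genes tested were, and 5 of the 8 had an unadjusted p under 0.05. Log2 fold changes are differences of the group means of log2(FPKM + 1), labelled-deficient minus control, and for any 1 gene the smallest two-sided p of an exact permutation test is 0.333 in a design of 2 against 2. Mice were pooled, so p-values measure the spread between pools.

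*Itgae* (Entrez 16407, on chromosome 11 from 73090505 to 73147449 in GRCm38) stood at 383 and 301 FPKM in control replicates 1 and 3, and 227 and 245 FPKM in labelled-deficient replicates 1 and 3. Both labelled-deficient libraries were below both controls. This was so for 2 of the 8 members, *Itgae* and *Itga1*, and for 18.6% of the genes tested. The group means were 342 ± 58.0 and 236 ± 12.8 FPKM (SD, n = 2), and the log2 fold change was −0.52 ± 0.20 (SE, 95% confidence interval −1.02 to −0.02, limma adjusted p = 0.755). It was −0.14 after scaling to *Cd3* genes and *Ptprc*, which is −0.49 relative to the all-gene median after this scaling. *Cd8a*, which the sort selected on, was also below both controls in both of these libraries, with 463 and 418 against 337 and 280 FPKM. Per 1000 FPKM of the T cell and leukocyte sum, *Itgae* had 108 and 106 in the controls, and 78.7 and 119 in the labelled-deficient libraries. On this scale the groups overlapped, and labelled-deficient replicate 3 was the highest of the 4.

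*Itgb7* (Entrez 16421, on chromosome 15 from 102215994 to 102233405) stood at 179 and 140 FPKM in control replicates 1 and 3, and 144 and 84.4 FPKM in the labelled-deficient libraries. The groups overlapped, and within each group replicate 3 was the lower library. The log2 fold change was −0.51 ± 0.30 (SE, limma adjusted p = 0.757). It was −0.13 without labelled-deficient replicate 3, −0.90 without labelled-deficient replicate 1, −0.34 without control replicate 1 and −0.053 with the epithelial covariate. Per 1000 FPKM of the T cell and leukocyte sum it had 50.4 and 49.2 in the controls, and 50.0 and 41.0 in the labelled-deficient libraries. The ratio of *Itgae* to *Itgb7* was 1.57 and 2.90 in the labelled-deficient libraries, on either side of the control values, so the libraries of that group differed more from each other than from the controls.

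*Itga4* (Entrez 16401, on chromosome 2 from 79255426 to 79333114) stood at 11.8 and 7.08 FPKM in control replicates 1 and 3, and 16.0 and 4.55 FPKM in the labelled-deficient libraries. *Itgal* (Entrez 16408, on chromosome 7 from 127296139 to 127335137) stood at 17.0 and 13.4 FPKM in the controls, and 25.3 and 6.46 FPKM in the labelled-deficient libraries. For both genes the highest and the lowest library carried the same label, and the level followed the replicate number. The differences between replicates 3 and 1, averaged over the groups, were −1.14 and −1.07 on the log2 scale, against log2 fold changes between groups of −0.07 (95% confidence interval −1.52 to 1.38) for *Itga4* and −0.20 (95% confidence interval −1.69 to 1.29) for *Itgal*. These intervals include both higher and lower values of more than 2-fold, and adjusted p was 0.983 and 0.944 from limma. *Cd4*, given above, had the same libraries high and low as far as the replicate number goes, with both replicate 1 libraries above both replicate 3 libraries. Its part in these values was not tested. Without labelled-deficient replicate 3 the log2 fold changes became 0.74 for *Itga4* and 0.71 for *Itgal*, and without labelled-deficient replicate 1 they became −0.87 and −1.11. *Itga4* was at 0.264 without control replicate 1.

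*Itgb2* (Entrez 16414, on chromosome 10 from 77530329 to 77565708), the β chain that all leukocyte β2 integrins share, had 154 and 116 FPKM in control replicates 1 and 3, and 126 and 82.0 FPKM in the labelled-deficient libraries. The groups overlapped, with a log2 fold change of −0.40 ± 0.27 (SE, limma adjusted p = 0.765). It was −0.093 without labelled-deficient replicate 3, −0.70 without labelled-deficient replicate 1, −0.19 without control replicate 1, −0.60 without control replicate 3 and 0.024 with the epithelial covariate. Per 1000 FPKM of the T cell and leukocyte sum it had 43.5 and 41.0 in the controls, and 43.5 and 39.9 in the labelled-deficient libraries. The log2 difference between the groups on that scale was −0.02, and its spread within groups (SD 0.08, log2) was the smallest of the 8 genes.

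*Itga1* (Entrez 109700, on chromosome 13 from 114958079 to 115101964), the collagen-binding α1 chain (CD49a), had 47.7 and 36.4 FPKM in control replicates 1 and 3, and 31.7 FPKM in each labelled-deficient library. Both labelled-deficient libraries were below both controls. The log2 fold change was −0.39 ± 0.21 (SE, 95% confidence interval −0.91 to 0.14, limma adjusted p = 0.755). It was −0.19 without control replicate 1 and −0.014 after scaling to *Cd3* genes and *Ptprc*, which is −0.36 relative to the all-gene median after this scaling. Per 1000 FPKM of the T cell and leukocyte sum it had 13.5 and 12.8 in the controls, and 10.98 and 15.4 in the labelled-deficient libraries, where the groups overlapped.

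*Itgb1* (Entrez 16412, on chromosome 8 from 128685654 to 128733579), the β1 chain that pairs with α1, α4 and several other α chains, went the other way. It had 14.9 and 11.7 FPKM in control replicates 1 and 3, and 21.9 and 27.1 FPKM in the labelled-deficient libraries. Both labelled-deficient libraries were above both controls, which was so for 1 of the 8 members and for 18.4% of the genes tested. The group means were 13.3 ± 2.26 and 24.5 ± 3.66 FPKM (SD, n = 2), a ratio of 1.84. The log2 fold change was 0.84 ± 0.24 (SE, 95% confidence interval 0.23 to 1.44, limma adjusted p = 0.755, and 0.0378 with the block), above that of 91.2% of the genes tested. It was positive in each of the 10 alternatives that could move it, between 0.67 and 1.198, the highest under the scaling to *Cd3* genes and *Ptprc*, which is 0.85 relative to the all-gene median after this scaling. Per 1000 FPKM of the T cell and leukocyte sum it had 4.20 and 4.12 in the controls, and 7.59 and 13.2 in the labelled-deficient libraries.

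*Cd44* (Entrez 12505, on chromosome 2 from 102811141 to 102901669) stood at 16.7 and 12.2 FPKM in control replicates 1 and 3, and 24.5 and 15.2 FPKM in the labelled-deficient libraries. The groups overlapped, with a log2 fold change of 0.41 ± 0.31 (SE, limma adjusted p = 0.777). It was 0.083 without labelled-deficient replicate 1, 0.74 without labelled-deficient replicate 3, 0.20 without control replicate 3, 0.62 without control replicate 1 and 0.85 with the epithelial covariate. Per 1000 FPKM of the T cell and leukocyte sum it had 4.69 and 4.31 in the controls, and 8.48 and 7.38 in the labelled-deficient libraries. On that scale the groups were apart, with a ratio of 1.76 between their geometric means, while the median log2 fold change of all genes tested moved to 0.34 when the libraries were scaled to the same sum.

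**Figure D2:**
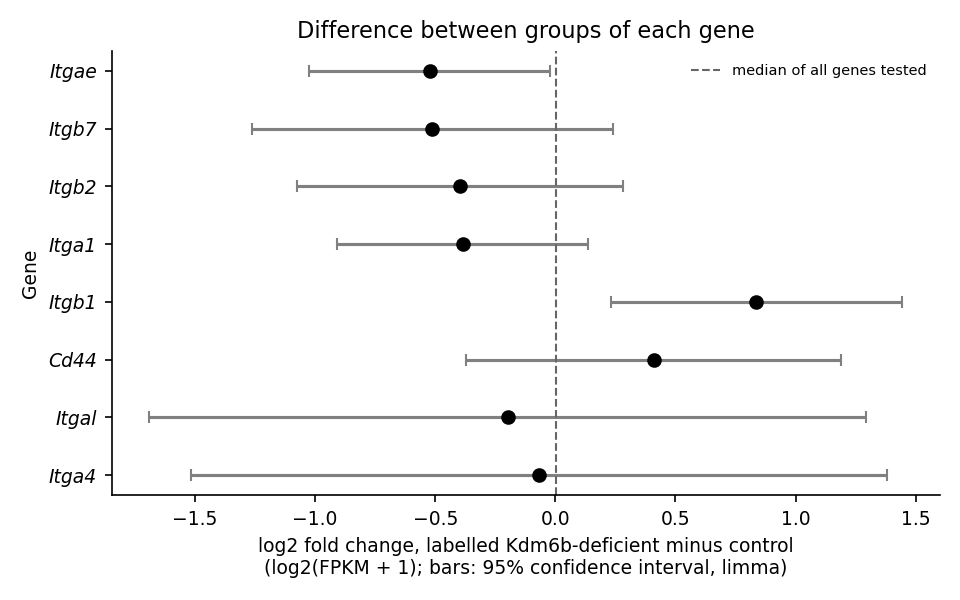
Log2 fold change, labelled-deficient minus control, of each of the 8 genes on the log2(FPKM + 1) scale, with bars for the 95% confidence interval from limma and a dashed line at the median of all genes tested. The interval excludes 0 for *Itgae* (−1.02 to −0.02) and *Itgb1* (0.23 to 1.44), without adjustment for the number of genes, and it is widest for *Itgal* and *Itga4*.

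Epithelial and myeloid cells also carry β1 integrins, and CD44 is not confined to T cells either. All 20 epithelial markers and all 8 myeloid and dendritic markers tested had a positive log2 fold change, with medians of 1.36 and 0.64, and 3 of the 20 and 6 of the 8 were above both controls in both labelled-deficient libraries, beside 18.4% of all genes tested. Between same-numbered libraries all 20 epithelial markers were higher in the labelled-deficient library in both pairs. Under the block limma called 20 of the 20 (adjusted p 0.00047 to 0.018) and 2 of the 8 myeloid markers, *Cd74* and *H2-Ab1* (0.0087 and 0.013), beside 8.49% of all genes tested. *Itgb1* per 1000 FPKM of the epithelial sum was 8.74 and 1.68 in the controls and 4.29 and 1.83 in the labelled-deficient libraries, and per 1000 FPKM of the myeloid sum it was 5.97 and 6.57 against 5.48 and 8.63. The groups overlapped on both scales. The part of epithelial or myeloid RNA in the *Itgb1* and *Cd44* values was not tested. Between control replicate 3 and labelled-deficient replicate 1, where the epithelial sum of the second was 0.734 times and the T cell and leukocyte sum 1.02 times that of the first, the log2 difference of *Itgb1* was 0.85 and that of *Cd44* 0.94. *Lyz1* was the largest part of the epithelial sum in both libraries, at 3152.5 FPKM in the first and 1600 FPKM in the second. The mean log2(FPKM + 1) of the 20 epithelial markers, which weighs each marker alike, was 6.96 and 6.72. In the second of these libraries the myeloid sum was 2.25 times as high, the B lineage sum 2.51 times (*Jchain* at 48.8 against 0.94 FPKM) and the sum of *Cd4* and *Cd8b1*, which the sort excluded, 2.91 times. Their part in these differences was not tested. *Itgae* and *Itga1* differed there by −0.41 and −0.19, *Itgb7* and *Itgb2* by 0.05 and 0.11, and *Itga4* and *Itgal* by 1.07 and 0.87.

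The T cell and leukocyte sum also removed most of the difference between the control libraries. In FPKM all 8 genes were lower in control replicate 3 than in control replicate 1, where 50.8% of the genes tested were. In the labelled-deficient libraries 5 of the 8 were lower in replicate 3, where 49.1% of the genes tested were, and the same 5 (*Itgb7*, *Itga4*, *Itgal*, *Itgb2* and *Cd44*) were lower in replicate 3 of both groups, beside 34.5% of the genes tested. Relative to the sum, control replicate 3 was at 0.919 to 0.988 times control replicate 1 for 7 of the genes and at 0.749 times for *Itga4*. Between the labelled-deficient libraries the same ratio ran from 0.358 for *Itgal* to 1.73 for *Itgb1*. The ratios of the 8 genes thus ran over a wider range in that group than in the controls.

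**Figure D3:**
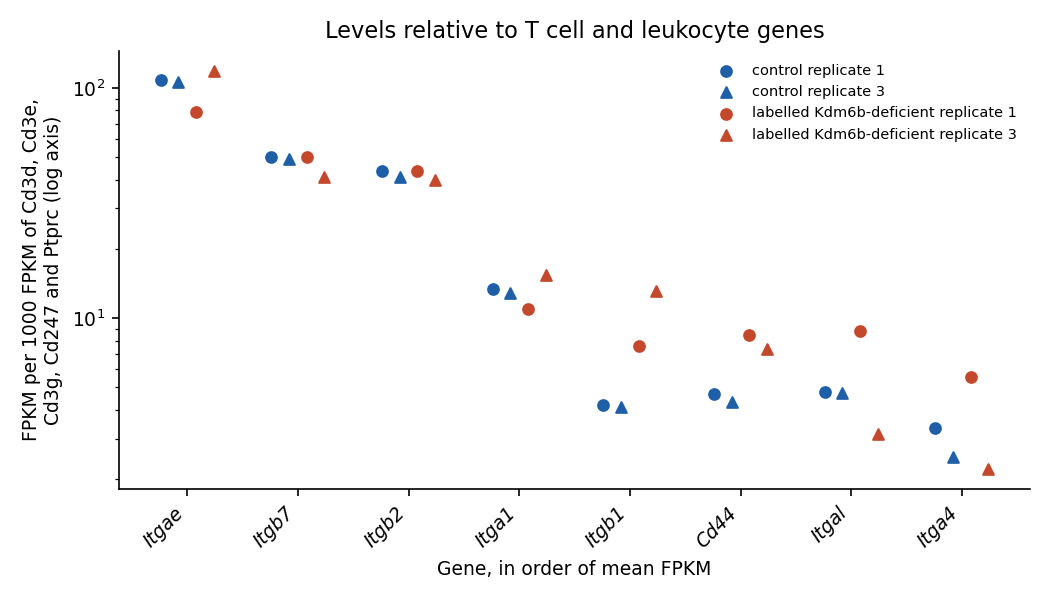
FPKM of each of the 8 genes per 1000 summed FPKM of *Cd3d*, *Cd3e*, *Cd3g*, *Cd247* and *Ptprc* in each library, on a log axis, with colours for the groups and shapes for the replicate numbers. The blue points of a gene nearly coincide except for *Itga4*, and both red points lie above both blue points for *Itgb1* and *Cd44*.

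Of the 5 pairs of partner chains, those of α1β1 differed most between the groups. The ratio of *Itga1* to *Itgb1* was 3.20 and 3.11 in the control libraries, and 1.45 and 1.17 in the labelled-deficient libraries. The groups did not overlap, and the difference of −1.28 on the log2 scale exceeded the spread within groups (SD 0.15, log2). The ratio of *Itgb7* to *Itgb1*, chosen after the values were seen, was 12.0 and 11.9 in the controls, and 6.60 and 3.12 in the labelled-deficient libraries. A ratio within a library is free of any scaling of that library, and shows unequal levels of the chains without saying which of them differed. For *Itgae* to *Itgb7*, *Itga4* to *Itgb7*, *Itga4* to *Itgb1* and *Itgal* to *Itgb2* the groups overlapped. *Itgal* to *Itgb2* was 0.202 and 0.0788 in the labelled-deficient libraries, above and below both controls.

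The promoters of *Itga1* and *Itgb1* are shown because trimethylation of H3K27 is often found at promoters rich in CpG. A further reason is that these chains of α1β1 stood on opposite sides of the controls. RefSeq windows of GRCm38.p6 matched 5 of the 8 genes, all but *Itgae*, *Itgal* and *Itgb2*, the *Itgb7* window lies within the gene interval given above and is not used, and the 250 bases before the start in that table are given 5′ to 3′ in the direction of transcription, with each CpG (the letters CG, which read the same on both strands) in capitals.
*Itga1* (chr13:115101965-115102214, minus strand): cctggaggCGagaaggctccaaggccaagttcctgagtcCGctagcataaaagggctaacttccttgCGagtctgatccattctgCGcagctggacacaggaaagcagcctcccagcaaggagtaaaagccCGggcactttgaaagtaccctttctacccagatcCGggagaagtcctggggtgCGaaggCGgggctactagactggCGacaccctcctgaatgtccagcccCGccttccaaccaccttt
*Itgb1* (chr8:128685404-128685653, plus strand): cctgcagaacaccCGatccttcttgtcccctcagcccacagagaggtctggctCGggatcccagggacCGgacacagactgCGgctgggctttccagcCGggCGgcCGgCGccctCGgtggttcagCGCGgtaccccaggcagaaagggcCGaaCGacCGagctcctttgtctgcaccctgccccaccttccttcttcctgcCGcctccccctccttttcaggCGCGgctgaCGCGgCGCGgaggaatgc
At least 1 CpG was found in 92.1% of all windows. The *Itga1* window held 10, and 37.8% of the 32851 windows of this length held as many or more. The *Itgb1* window held 21, and 16.3% of the windows held as many or more. The *Itga4* and *Cd44* windows held 6 and 5, beside a median of 6 over all windows. No measurement of histone methylation was analysed here, so these counts describe the sequence alone.

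Beyond the 7 integrin genes above, 20 more integrin chains were listed, and 13 of them were tested with 0 called by limma without the replicate block. All were below the mean level of *Itga1*. The highest were *Itgav*, the αv chain, with 21.7 and 12.1 FPKM in control replicates 1 and 3 and 14.3 and 11.9 FPKM in the labelled-deficient libraries, and *Itgax*, the CD11c chain of dendritic cells and some IELs, with 8.09 and 5.04 against 13.2 and 6.5 FPKM. Both overlapped between the groups. *Itga3*, a laminin-binding chain of epithelia that pairs with β1, had 2.42 and 7.44 FPKM in the controls and 7.91 and 15.1 FPKM in the labelled-deficient libraries, a log2 fold change of 1.15 ± 0.54 (SE, limma adjusted p = 0.755, and 0.019 with the block). Both labelled-deficient libraries were above both controls, and the order of the libraries was that of the epithelial sum except that control replicate 3 and labelled-deficient replicate 1 changed places. *Itgb4*, which forms the epithelial laminin receptor α6β4, had 0.69 and 2.45 against 1.88 and 5.60 FPKM, and *Itgb6*, an epithelial partner of αv, had 0.43 and 2.05 against 2.42 and 2.64 FPKM. *Itgb3*, another partner of αv, had 6.14 and 3.28 against 3.85 and 2.79 FPKM. Of the 8 other α chains tested, 3 were above both controls in both labelled-deficient libraries and 1 was below both, and of the 5 other β chains 2 were above and 1 below, beside 18.4% above and 18.6% below over all genes tested.

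**Figure D4:**
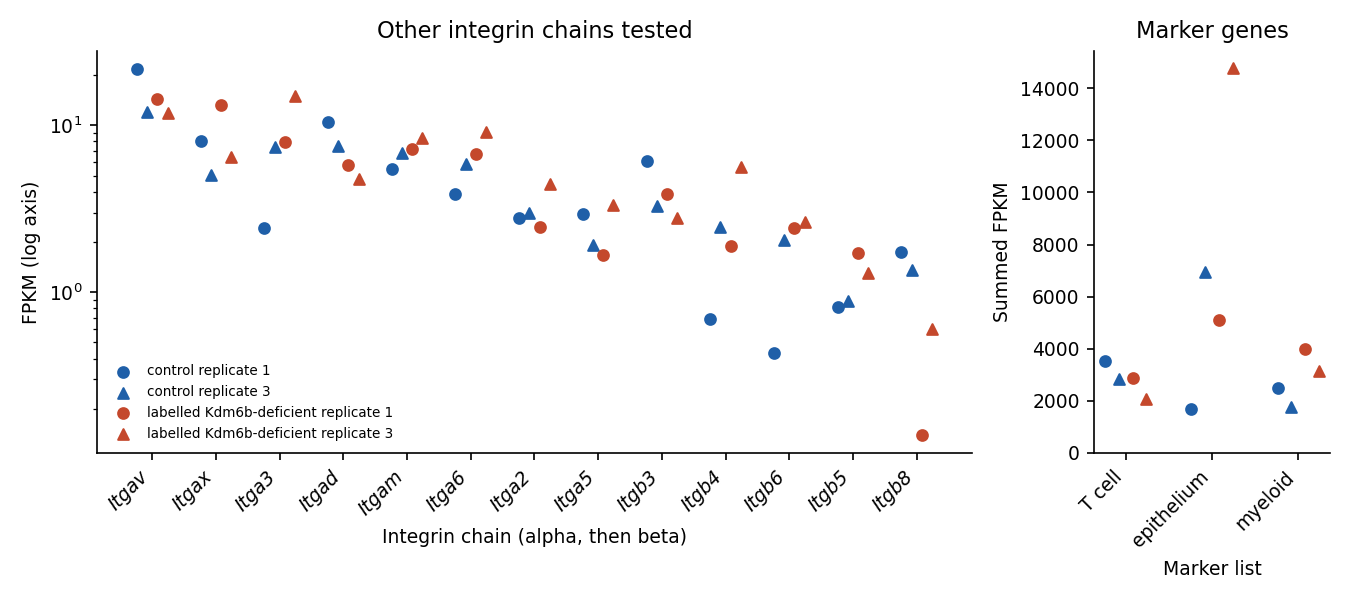
Left, FPKM on a log axis of the 13 other integrin chains tested, in each library. Right, summed FPKM of the T cell and leukocyte, epithelial and myeloid marker lists on a linear axis from 0, where the epithelial sum runs from 1703 in control replicate 1 to 14788 in labelled-deficient replicate 3.

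Ligands of the 8 molecules were measured in the same libraries, and 15 of the 17 on the list were listed, 8 of them tested and 0 called by limma without the block. *Cdh1*, E-cadherin and the ligand of αEβ7, had 23.9 and 35.1 FPKM in the controls and 28.6 and 75.7 FPKM in the labelled-deficient libraries, where the groups overlapped. *F11r*, the junction protein JAM-A that LFA-1 can bind, had 13.8 and 22.9 against 32.1 and 50.4 FPKM, with a log2 fold change of 1.13 ± 0.34 (SE, limma adjusted p = 0.755, and 0.0031 with the block) and both labelled-deficient libraries above both controls. For both of these epithelial genes the highest library was the one with the highest epithelial sum, and the part of epithelial RNA was not tested. *Icam1* and *Icam2*, ligands of LFA-1, had 83.5 and 50.8 against 84.3 and 39.2 FPKM, and 32.2 and 22.8 against 25.3 and 16.4 FPKM. *Spp1*, osteopontin, a ligand of CD44 and of several integrins, had 59.0 and 47.7 against 46.5 and 61.7 FPKM, and these 3 genes overlapped between the groups. *Col4a1*, *Col1a1* and *Lamc1*, matrix genes, lay between 0.96 and 4.55 FPKM, near the level filter, and were below both controls in both labelled-deficient libraries. Of the 8 ligands tested, 3 were thus below both controls and 1 was above both, beside 18.6% and 18.4% of all genes tested. *Madcam1*, *Vcam1*, *Fn1*, *Col4a2*, *Col1a2*, *Lamb1* and *Has2* did not pass the level filter, with 2.13 FPKM for *Madcam1* as their highest value.

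The proteins that act on integrin tails from inside the cell, through talin, kindlin and Rap1, were led by *Ilk*, integrin-linked kinase, with 207 and 182 FPKM in the controls and 145 and 136 FPKM in the labelled-deficient libraries, a log2 fold change of −0.46 ± 0.17 (SE, limma adjusted p = 0.755). These libraries did not overlap. Next came *Skap1*, an adaptor of T cell integrin activation, with 185 and 151 against 165 and 108 FPKM, and *Rassf5*, the Rap1 effector RAPL, with 139 and 114 against 132 and 81.1 FPKM. *Fermt1*, the kindlin of epithelia, had 2.19 and 4.30 against 4.53 and 12.3 FPKM, with a log2 fold change of 1.06 ± 0.52 (SE, limma adjusted p = 0.755, and 0.039 with the block). Of the 26 genes on this list 23 were tested, 0 were called by limma without the block and 3 had an unadjusted p under 0.05, beside 5.35% of all genes tested. Below both controls were 8 and above both were 2, beside 18.6% and 18.4% of all genes tested, and the median log2 fold change was −0.15. The linkers of CD44 to actin, *Msn*, *Ezr* and *Rdx*, had log2 fold changes of −0.40, −0.17 and −0.21, with 0 of 3 called. *Msn* and *Ezr* were below both controls in both labelled-deficient libraries, with 265 and 215 against 206 and 159 FPKM, and 92.6 and 98.4 against 78.7 and 90.8 FPKM. *Rdx* had 55.9 and 49.4 against 57.0 and 35.8 FPKM.

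Among 20 other leukocyte adhesion molecules 19 were tested and 0 were called by limma without the block. Below both controls were 4 and above both were 3, close to the 18.6% and 18.4% of all genes tested, and the median log2 fold change was −0.15. *Cd7*, a surface molecule of T and NK cells, was the highest of them at 7843 and 5779 FPKM in the controls and 5492 and 4129 FPKM in the labelled-deficient libraries. *Selplg*, the selectin ligand PSGL-1, had 545 and 423 against 456 and 252 FPKM, and *Cd96*, a receptor for nectin-family ligands, had 416 and 320 against 320 and 226 FPKM. *Ceacam1*, an adhesion molecule of epithelia and activated T cells, had 19.3 and 48.2 against 77.8 and 92.4 FPKM, with a log2 fold change of 1.44 ± 0.43 (SE, limma adjusted p = 0.755, and 0.0030 with the block). *Cd99* had 3.04 and 1.86 against 0.52 and 0.63 FPKM, with a log2 fold change of −1.11 ± 0.35 (SE, limma adjusted p = 0.755, and 0.049 with the block).

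**Figure D5:**
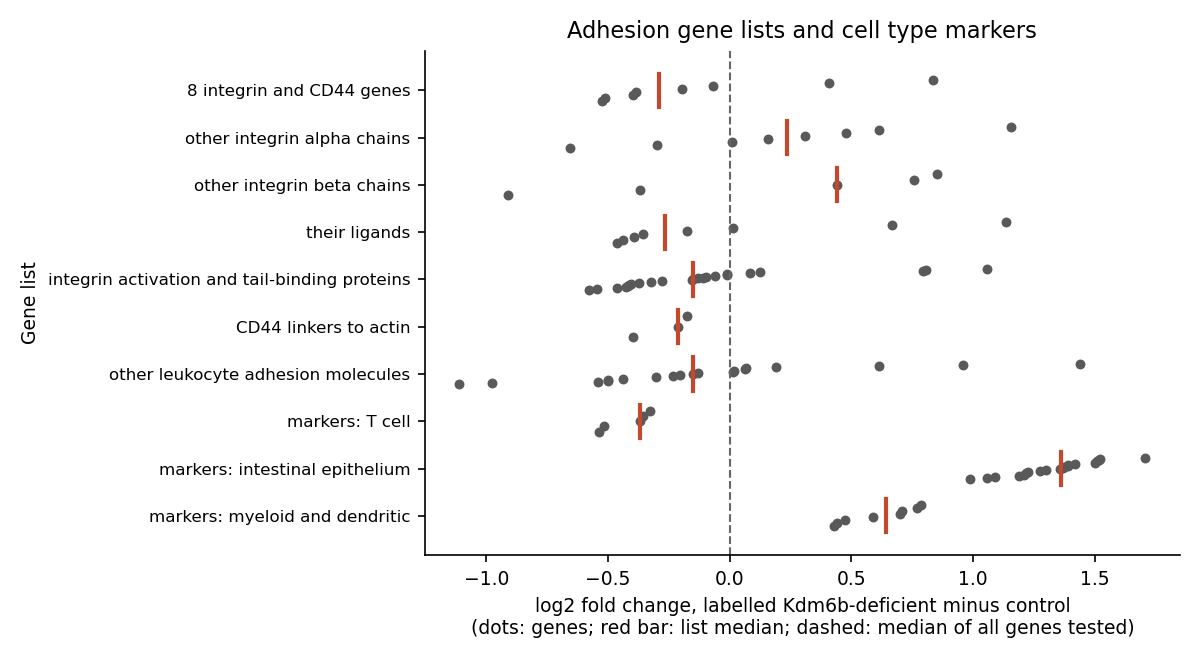
Log2 fold change, labelled-deficient minus control, of each tested gene of the adhesion lists and of 3 marker lists, with a dot for each gene, a red bar for the list median and a dashed line for the median of all genes tested. The medians are −0.29 for the 8 integrin and CD44 genes, −0.37 for the T cell and leukocyte markers and 1.36 for the epithelial markers.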

How the data were processed

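RNA of sorted CD45+CD4-TCRβ+CD8α+CD8β- cells, pooled from 3 mice per library, was sequenced by the authors, who aligned reads to the mm10 genome with both HISAT and Bowtie2 and used RSEM for quantification. The submitters' processing notes name Bowtie2 2.2.5, RSEM 1.2.8 and GRCm38.p5. The gene annotation and the strandedness of counting were not given in the sources used here. The deposited values are FPKM, scaled by the authors to transcript length and mapped fragments, with 2 decimals, so RNA of other cells in a library lowers the FPKM of T cell genes. Entrez identifiers were matched to RefSeq symbols of GRCm38.p6 (18467 of 19339; 758 were predicted transcripts and 114 stayed unnamed). *Itgae*, *Itga4*, *Itga1* and *Cd44* overlap other annotated genes (*Haspin*, *Cerkl*, *Pelo* and *Gm23731*), whose reads may not be told apart.

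Read counts were not used here. Among 1729 genes with a single transcript of 1000 to 4000 bases, 41 to 152 per library had an FPKM multiplied by length in kilobases within a low window set by hand, and their median, 0.0787 to 0.0926, was taken as the worth of a single fragment. This gives an approximate 10800000 to 12700000 mapped fragments per library, and it moves with the window and with effective length. On that estimate the fewest fragments behind a member in a library were 364 (*Itgal*), a counting error of 5.24%. This covers counting error only.

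Groups were compared by limma 3.58.1 in R 4.3.3 (lmFit, then eBayes with a mean-variance trend) on log2(FPKM + 1) for 12009 genes, with Benjamini-Hochberg adjustment over all of them, and the model was tested on simulated data. Python 3.11.15 with numpy 2.4.6, pandas 2.3.3 and matplotlib 3.10.9 served for tables and figures. The members and all gene lists were chosen with earlier results of these data known. Named beside the members were the 3 genes of highest mean FPKM in each other list, all ligands, and list genes past a log2 fold change of 1 whose groups did not overlap. The alternatives were the pseudocount, the filter, the scaling, a trend-free model, the replicate number as a block, an epithelial score as a covariate and leaving out each library in turn. Ratios to the epithelial and myeloid sums and of *Itgb7* to *Itgb1* were added after the values were seen. Single-cell, CUT&Tag and qPCR data were not analysed here.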

Additional observations from a re-analysis of the deposited data

How the results depend on the processing

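Of 14 alternatives 10 could move a log2 fold change, the filters, the block and the model without a trend leaving it as it was. Over those 10 *Itgae*, *Itgb7* and *Itga1* kept negative log2 fold changes and *Itgb1* and *Cd44* positive ones. Scaling to *Cd3* genes and *Ptprc* moved the median of all genes tested to 0.34, and with it *Itga4* to 0.26 (−0.082 relative to that median), *Itgal* to 0.15 (−0.20) and the median of the 8 genes to 0.066 (−0.28). *Itga4* turned positive with an epithelial score as covariate (0.86), without control replicate 1 (0.264) and without labelled-deficient replicate 3 (0.74), and was −0.87 without labelled-deficient replicate 1. *Itgal* did so with the covariate (0.66) and without labelled-deficient replicate 3 (0.71), with −1.11 without labelled-deficient replicate 1, and *Itgb2* with the covariate (0.024). The median of the 8 genes was 0.34 with the covariate. Leaving out each library in turn gave medians of −0.585 to 0.30, positive only without labelled-deficient replicate 3, whose epithelial sum was the highest. The cause of these changes was not tested.

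Genes past a log2 fold change of 1 numbered 797 in the analysis reported (744 higher, 53 lower). By library left out they numbered 341 without control replicate 1, 1354 without control replicate 3, 1489 without labelled-deficient replicate 1 and 388 without labelled-deficient replicate 3, the remaining library of that group being assumed to vary like the other group. The lower genes among them were 49, 139, 247 and 75. They numbered 1381 and 1451 with pseudocounts of 0.1 and 0.01 (178 and 197 lower), and 1403 under the *Cd3* and *Ptprc* scaling and 436 with the covariate (24 and 96 lower). Genes called by limma numbered 0 in the analysis reported and 182 with the covariate, and 0 in each other alternative except the block. The counts at an unadjusted p under 0.05 were 642 in the analysis reported and 1068 with the covariate, and 228, 1020, 1580 and 305 with the libraries left out in the same order. Adding the replicate number as a block gave 1019 called genes (8.49%, 2736 at an unadjusted p under 0.05), and 1 of the 8 members, *Itgb1* (adjusted p = 0.0378, range 0.0378 to 0.99991 over the alternatives). In the other adhesion lists it called *Itga3*, *F11r*, *Fermt1*, *Ceacam1*, *Cd99* and *Cd81* (adjusted p = 0.0027 for *Cd81*, named after its values were seen). The replicate numbers come from the labels, which do not say what they mark, and the deviations of same-numbered libraries correlated at 0.56 across genes, which are not independent. None of the 14 ratios to a partner chain, within the β7 partners or to the T cell and leukocyte sum moved by more than its spread within groups when 1 was added to each FPKM, and the ratios of *Itgb7* to *Itgb1* and of *Itgb1* to the epithelial and myeloid sums were not recomputed so. The estimated counting error was at most 5.24% of a member's FPKM in any library.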
